A study of Homo sapiens with 6 samples.

Results

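The genes described here are 88 splicing genes of human cells, measured by RNA-seq as read counts per gene in control and PHF8 knockout 786-O cells. They were chosen by name from the 54261 gene symbols of the count table: the SRSF genes with TRA2A, TRA2B, SRRM1 and SRRM2 (16 genes, called SR proteins below), the HNRNP genes (23), the SNRP genes (12), U2AF1, U2AF2 and the SF3A and SF3B genes (11), the PRPF genes (13) and the LSM genes (13). The rule left out 2 HNRNP genes, pseudogenes and antisense names. The rule uses names only. The cells, 786-O, are an established human line of clear cell renal cell carcinoma. One group received Cas9 with a guide RNA against PHF8, which encodes a histone demethylase, and the other received Cas9 with a control guide RNA. Each group has 3 libraries, and all were grown in the same medium. The labels do not state whether knockout cells were a clone or a pool, whether 1 guide or several were used, and whether the libraries of a group are separate cultures. The spread that enters each p-value is therefore a spread between libraries and may be technical.

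Splicing removes introns from pre-mRNA and joins the exons. SR proteins bind exons through RNA recognition domains and recruit the machinery with their arginine- and serine-rich tails, while hnRNPs coat nascent RNA and often oppose exon inclusion. The U1 particle marks the 5′ splice site, U2AF and the U2 particle with its SF3A and SF3B parts mark the 3′ end of the intron and the branch site, and the U4/U6.U5 particle with the PRPF proteins then builds the catalytic centre. Sm proteins form the ring around most spliceosomal small nuclear RNAs, and LSM proteins form the like ring around U6 or a related ring that acts in mRNA decay.

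Levels are given as CPM, read counts scaled to a common library size with TMM factors, which assume that most genes do not change. A difference is a log2 fold change, knockout minus control, from edgeR's quasi-likelihood test, and a gene "rose" or "fell" where its Benjamini-Hochberg adjusted p over 14398 tested genes was under 0.05. Libraries held 21533615 to 25055762 counted reads in control and 25632275 to 29095133 in knockout cells. The targeted gene, PHF8, had 36.6, 35.1 and 32.9 CPM in control libraries 1 to 3 and 10.8, 6.74 and 12.8 CPM in knockout libraries 1 to 3, and fell by 1.78 on the log2 scale (SE 0.21, adjusted p = 1.19e-04). The difference between the groups was broad: 8593 tested genes (59.7%) passed, 28.9% higher and 30.8% lower. Of 9 renal carcinoma and tubule markers, PAX8 was at 223 CPM in control and 363 CPM in knockout cells, while PAX2 (6.57 and 3.10), CDH16 (1.13 and 1.79), CA9 (0.62 and 0.61) and NDUFA4L2 (0.11 and 0.51) were low. The list's sum of 6209 to 6261 CPM in control and 6645 to 8085 CPM in knockout libraries came mostly from VIM, which is not specific to kidney (5152 and 5988 CPM). The leukocyte genes PTPRC, CD3E and LYZ and 3 haemoglobin genes had 0 reads throughout, and the leukocyte sum of 43.8 to 48.0 and 112 to 122 CPM was nearly all CD68, a lysosomal protein that many cell types express. Fibroblast markers summed to 1.76 to 2.36 CPM in control and 0.32 to 1.0 CPM in knockout libraries, with COL3A1 at 0 and LUM lower (1.07 and 0.17 CPM). Endothelial markers summed to 1.4 to 1.5 CPM in control and 1.5 to 3.0 CPM in knockout libraries, with CDH5 at 0 and KDR higher (0.65 and 1.35 CPM). The part of other cell types in the results was not tested. In bulk RNA, fewer cells expressing a gene and less RNA per cell cannot be told apart.

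Enough reads for a test were present for 79 of the 88 genes. Among the 9 others, HNRNPCL2, HNRNPCL3, HNRNPCL4, LSM2, SNRPN and SRSF12 had 0 reads in all 6 libraries, HNRNPCL1 and HNRNPH2 had 2 reads in all, and PRPF31, a tri-snRNP protein needed in all cells, had 16. Some of these genes have further copies in the reference genome. An exact search of the genome for each 50-base stretch of the transcript found 78.5% of LSM2 (U6 ring) on alternate copies of its locus, on 5 scaffolds, and 66.6% of PRPF31 on 9 scaffolds. PRPF8, the largest spliceosome protein and its catalytic scaffold, had 73.2% of its stretches on 1 alternate scaffold and only 251, 615 and 512 reads in control and 415, 183 and 459 reads in knockout libraries. LSM14A, a P-body protein, had 87.4% on 4 scaffolds. Whether the mapping index held such scaffolds is not given in the sources used here, so the levels of these 4 genes are uncertain. HNRNPH2 (4.18% of stretches elsewhere on the primary chromosomes) and SNRPN (0%) had 0% on alternate scaffolds. They overlap the entries RPL36A-HNRNPH2 and SNURF, which also had 0 reads in all libraries. Whether the overlap affected their counts was not tested, so absence of their RNA cannot be read from them. In 16 genes over 15% of the stretches also lay elsewhere on the primary chromosomes, among them U2AF1 (64.6%), SNRPA1 (59.8%), SNRPG (54.1%), LSM12 (79.0%), HNRNPA1 (40.1%), HNRNPA3 (35.6%), HNRNPC (33.7%) and HNRNPK (30.3%). HNRNPA1L2, with 55.8% elsewhere, is one more, and the levels of all these genes depend on how shared reads were assigned. Reads counted for pseudogenes came to 30.8% of the control level of HNRNPL, 10.6% of HNRNPR, 7.83% of SNRPE, 6.85% of HNRNPA3 and 4.94% of SNRPG.

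Members moved in both directions. Of the 79 tested, 25 rose (all tested genes: 28.9% higher), 21 fell (all tested genes: 30.8% lower) and 33 did not pass. The share that passed, 58.2%, was close to that of all tested genes, 59.7%, and the median log2 fold change was 0.07 against -0.01 for all tested genes. In 30 members every knockout library lay above every control library (all tested genes: 32.6%), and in 24 every one lay below (34.2%). Changes past 2-fold were few on the higher side: U2AF1 and SRSF6 rose by more (all tested genes: 9.2%), while 9 members fell by more (14.2%). Among these were SRSF11, SF3B1, HNRNPA2B1, HNRNPA3, HNRNPLL, PRPF4B, HNRNPH1 and HNRNPL. Counts also differed by role, a difference that was not tested. Of the hnRNPs, 11 of 18 tested fell and 3 rose, while the Sm and snRNP proteins (4 of 11) and the LSM proteins (4 of 12) had risers and 0 genes that fell by this test (0 also at an unadjusted p under 0.05, by DESeq2, which called 29.8% of all tested genes lower, and by limma-voom, which called 31.1%). The SR and PRPF genes had 4 up and 4 down in each, a split that was 9 and 5 for SR genes and 4 and 2 for PRPF genes with the length and GC offset described below.

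**Figure D1:**
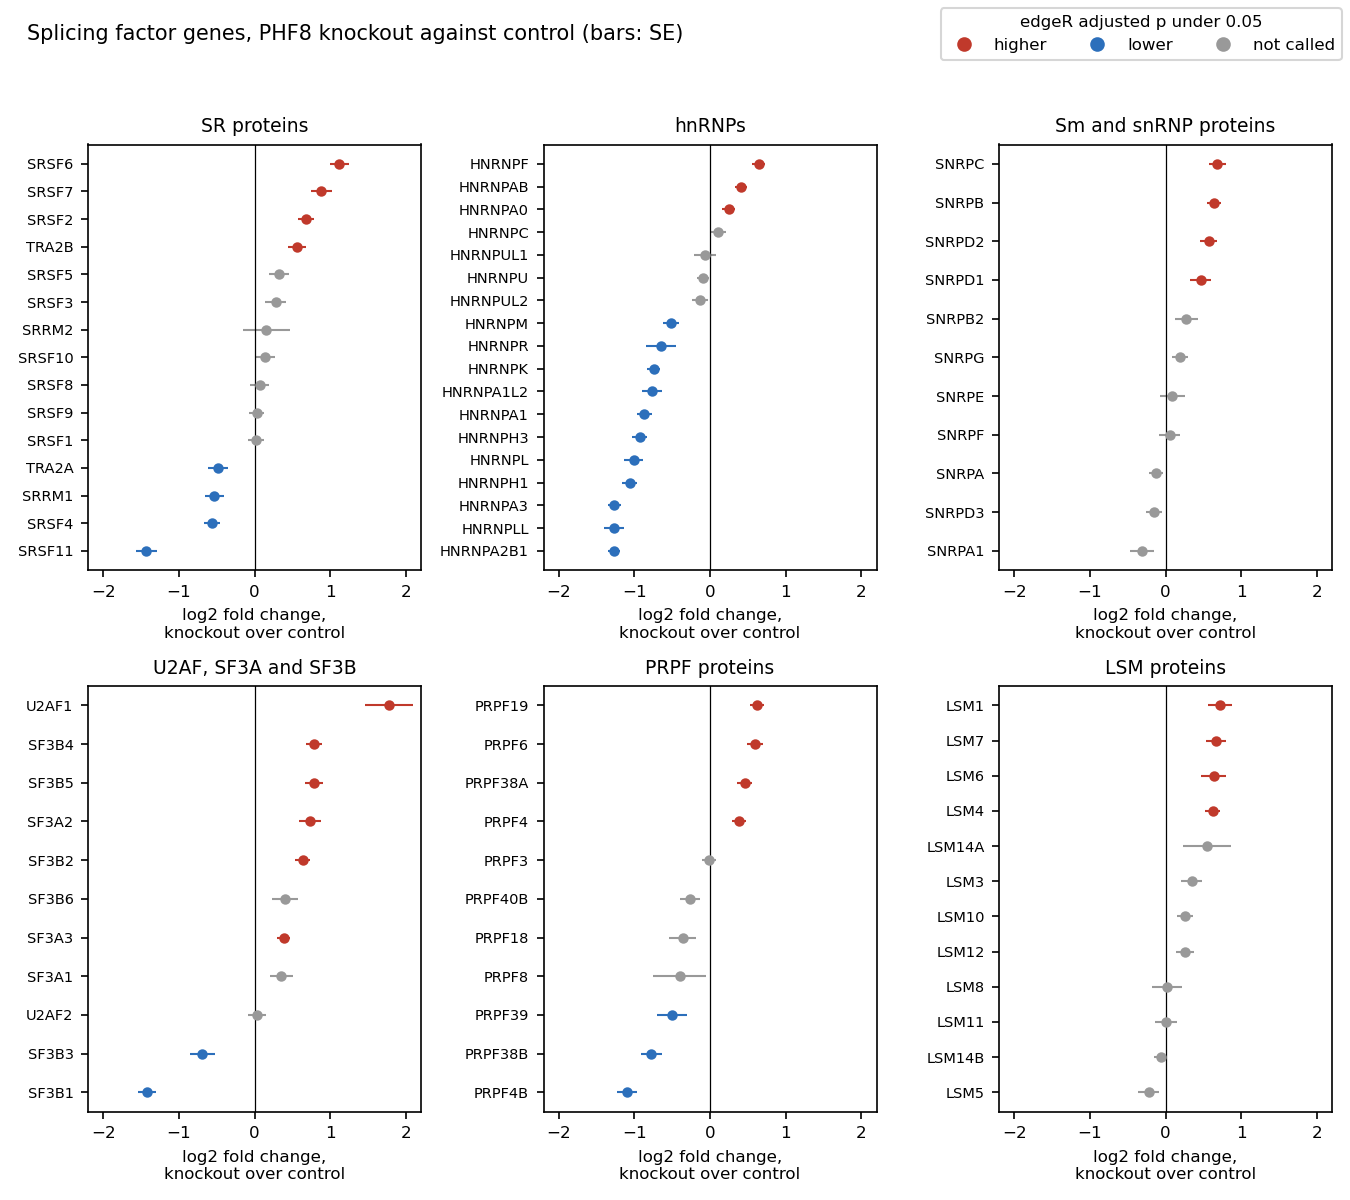
Log2 fold change (knockout minus control) of each tested gene, with its standard error, by role and coloured by call (1 PRPF gene is not shown). The hnRNPs lie mostly to the left of 0 with a median of -0.70, and the LSM proteins mostly to the right with a median of 0.30.

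To give the letters of control regions on both sides, 6 promoters are shown, each the 250 bases before the RefSeq transcription start (GRCh38.p14). The gene spans given elsewhere in the text are from GENCODE, which can place the start further out. By GENCODE spans the stretches of HNRNPA2B1 and HNRNPF lie inside the gene. Those of HNRNPA3, SF3B1 and SNRPB overlap the gene in part, and that of SF3B4 lies outside it. HNRNPF, SF3B4 and SNRPB rose with the smallest p among risers that hold the motif CCGGAAG, the core bound by ETS-family factors. HNRNPA2B1, HNRNPA3 and SF3B1 fell with the smallest p of all members and were taken without regard to the motif. Its presence in the printed risers alone is thus a result of this choice. Capitals mark this motif and the CCAAT box, which NF-Y is known to bind, each read on either strand.
The HNRNPF promoter is chr10:43408858-43409107 (minus strand), that of SF3B4 chr1:149927804-149928053 (minus strand) and that of SNRPB chr20:2470790-2471039 (minus strand).
HNRNPF: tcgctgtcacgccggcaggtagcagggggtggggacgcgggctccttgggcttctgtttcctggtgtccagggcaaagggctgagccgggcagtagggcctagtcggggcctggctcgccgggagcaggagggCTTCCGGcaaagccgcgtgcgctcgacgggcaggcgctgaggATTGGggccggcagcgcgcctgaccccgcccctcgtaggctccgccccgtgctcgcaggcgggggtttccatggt
SF3B4: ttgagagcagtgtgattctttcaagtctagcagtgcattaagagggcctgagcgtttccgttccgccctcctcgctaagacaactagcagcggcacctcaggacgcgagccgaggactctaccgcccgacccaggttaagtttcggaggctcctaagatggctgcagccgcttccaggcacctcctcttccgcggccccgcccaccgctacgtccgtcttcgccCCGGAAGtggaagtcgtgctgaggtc
SNRPB: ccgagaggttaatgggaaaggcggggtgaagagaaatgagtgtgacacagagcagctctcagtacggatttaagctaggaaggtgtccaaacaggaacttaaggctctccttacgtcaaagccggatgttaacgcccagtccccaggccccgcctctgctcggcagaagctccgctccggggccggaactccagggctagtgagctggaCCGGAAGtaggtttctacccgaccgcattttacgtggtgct
The HNRNPA2B1 promoter is chr7:26200747-26200996 (minus strand), that of HNRNPA3 chr2:177212544-177212793 (plus strand) and that of SF3B1 chr2:197435029-197435278 (minus strand).
HNRNPA2B1: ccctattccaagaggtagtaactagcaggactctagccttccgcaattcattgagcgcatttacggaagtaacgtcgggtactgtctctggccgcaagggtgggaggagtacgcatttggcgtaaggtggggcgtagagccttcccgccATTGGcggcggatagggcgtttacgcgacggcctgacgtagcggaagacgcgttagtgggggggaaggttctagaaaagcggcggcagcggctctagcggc
HNRNPA3: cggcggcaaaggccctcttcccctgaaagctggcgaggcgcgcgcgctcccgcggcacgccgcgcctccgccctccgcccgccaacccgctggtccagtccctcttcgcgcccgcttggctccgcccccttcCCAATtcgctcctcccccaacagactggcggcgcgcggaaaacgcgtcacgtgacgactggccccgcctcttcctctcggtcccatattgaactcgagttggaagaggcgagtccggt
SF3B1: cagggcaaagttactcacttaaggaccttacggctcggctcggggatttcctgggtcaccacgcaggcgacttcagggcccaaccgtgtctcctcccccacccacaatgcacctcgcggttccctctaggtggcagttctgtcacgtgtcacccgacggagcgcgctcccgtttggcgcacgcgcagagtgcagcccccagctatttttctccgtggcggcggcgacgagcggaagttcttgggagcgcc

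RefSeq promoters matched 75 of the 88 genes. CCGGAAG on either strand occurred in 21 of these 75, against 8.82% of 27305 promoters of the same length. Among members that rose it was present in 9 of 21 (42.9%): HNRNPF, PRPF6, SF3A2, SF3A3, SF3B2, SF3B4, SNRPB, SNRPC and SNRPD2. Among members that fell it was present in 2 of 15 (13.3%), HNRNPLL and SRSF4. CCAAT on either strand was in 45.3% of the members' promoters and 33.0% of all, with 38.1% among those that rose and 53.3% among those that fell. The other motifs searched were rarer: TATAAA was in 6.67% of members (all promoters: 11.1%), the palindrome of NRF1 in 1.33% (1.13%) and that of ZBTB33 in 2.67% (0.41%). No motif searched contains another. Member promoters held a median of 22 CpG pairs, against 11 in all promoters, with 23 among risers and 25 among fallers. Motif shares among all tested genes that rose or fell were not computed. Whether member risers and fallers differ from those in motif share is therefore not known. The 27305 promoters also include those of genes that were not tested. A match is a description of the letters and shows no binding.

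The SR proteins split between members that rose and members that fell. SRSF6, SRSF7, SRSF2 and TRA2B rose, and SRSF11, SRSF4, SRRM1 and TRA2A fell. SRSF6 (chr20:43457893-43466046, GRCh38), an SR protein that enhances exon inclusion, had 119.8, 117 and 127 CPM in control libraries 1 to 3 and 225, 315 and 250.01 CPM in knockout libraries 1 to 3. All 3 knockout libraries lay well above all controls. The mean went from 121 ± 4.95 to 263 ± 46.1 CPM (SD, n = 3), a log2 fold change of 1.12 (SE 0.13, adjusted p = 1.09e-04), or 2.17-fold. SRSF7 (chr2:38743599-38751494), which carries a zinc knuckle beside its RNA recognition domain, had 138, 136 and 142 CPM in control libraries 1 to 3 and 227, 317 and 221 CPM in knockout libraries 1 to 3, a change of 0.88 (SE 0.14, adjusted p = 6.25e-04). SRSF2, which acts in exon recognition and in release of paused polymerase, had 313, 303 and 329 CPM against 463, 583 and 465 CPM and changed by 0.68 (SE 0.11, adjusted p = 6.97e-04). TRA2B, an SR-like protein that binds purine-rich exonic enhancers, had 225, 224 and 225 CPM against 301, 393 and 299.9 CPM and changed by 0.56 (SE 0.12, adjusted p = 0.00293). In all 4 the groups did not overlap, and knockout library 2 was the highest.

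On the other side, SRSF11 (chr1:70205682-70253052), an SR protein that contacts U2AF, had 101, 116 and 135 CPM in control libraries 1 to 3 and 38.6, 43.2 and 48.8 CPM in knockout libraries 1 to 3. Its change was -1.43 (SE 0.14, adjusted p = 4.87e-05), 2.70-fold lower and the lowest log2 fold change of the 79. SRSF4, a long SR protein close in sequence to SRSF6, had 106, 102 and 103 CPM against 61.4, 76.5 and 72.2 CPM and changed by -0.57 (SE 0.11, adjusted p = 0.00147). The 2 close relatives thus went opposite ways in every library. SRRM1, a co-activator that bridges SR proteins and the snRNPs, had 103, 111 and 115 CPM against 76.6, 63.4 and 87.1 CPM and changed by -0.53 (SE 0.12, adjusted p = 0.00499). TRA2A, the paralogue of TRA2B, had 44.8, 56.0 and 55.4 CPM against 33.9, 43.3 and 34.7 CPM, changed by -0.48 (SE 0.14, adjusted p = 0.0131), and no longer passed when control library 2, control library 3 or knockout library 3 was left out (adjusted p up to 0.0701).

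The remaining SR genes did not pass. SRSF1, the founding SR protein, had a log2 fold change of 0.02, SRSF9 0.03, SRSF8 0.07, SRSF10 0.14, SRSF3 0.28 and SRSF5 0.32 (adjusted p = 0.0523). SRRM2, the scaffold of nuclear speckles, had 432, 435 and 426 CPM in control libraries 1 to 3 and 625, 220.0 and 596 CPM in knockout libraries 1 to 3. Knockout libraries 1 and 3 lay above the controls and library 2 far below them, so the change was 0.16, adjusted p = 0.687, and 0.51 (adjusted p = 6.56e-05) without library 2.

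**Figure D2:**
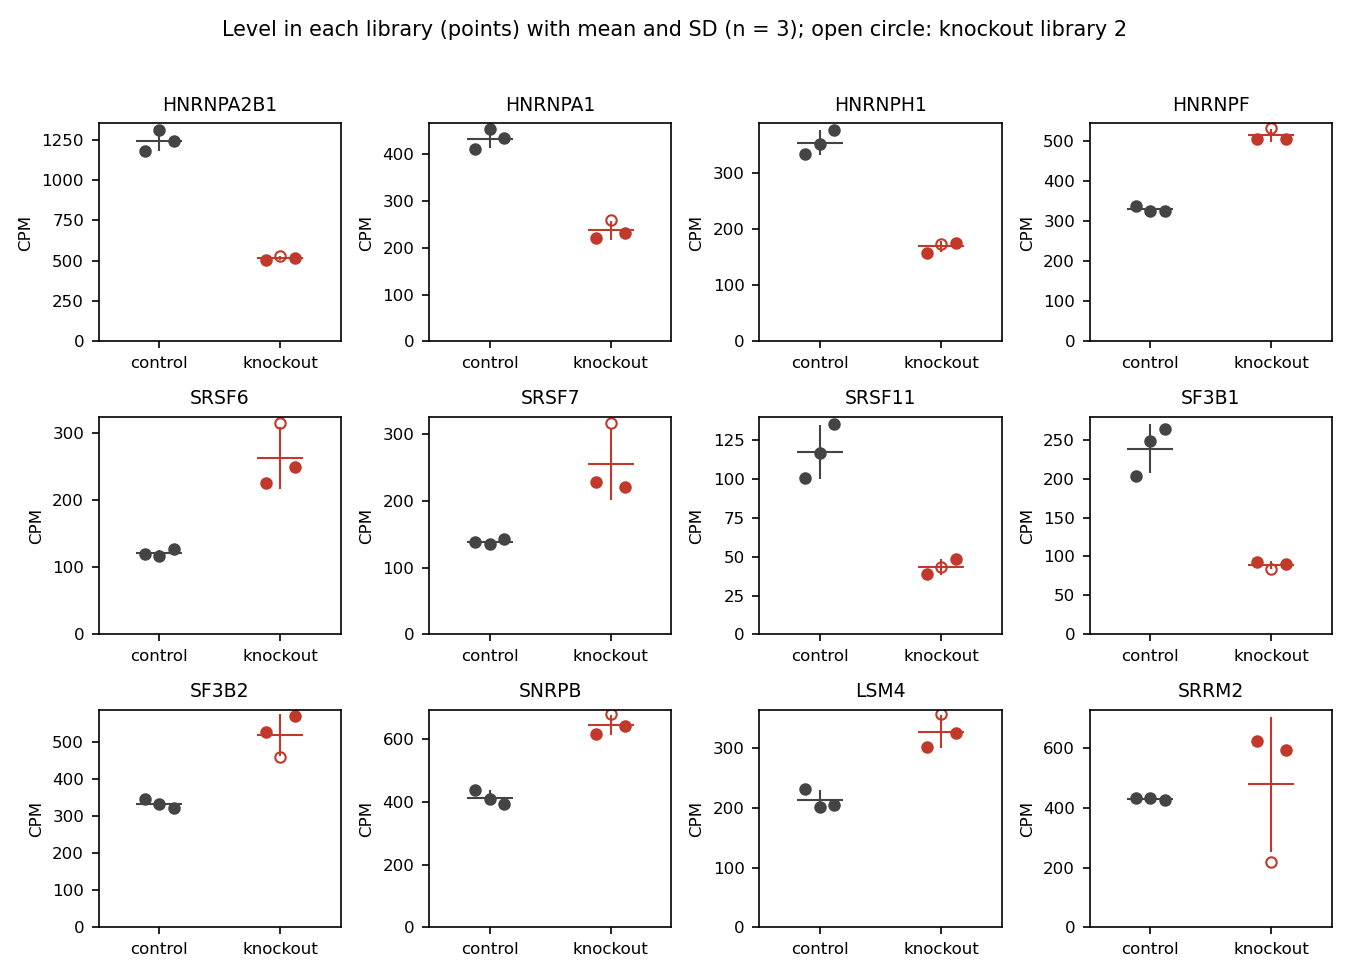
Level of selected members in each library (CPM, axis from 0), as points with the mean and SD of each group (n = 3) and knockout library 2 as an open circle. SRSF6 sat at 117 to 127 CPM in control and 225 to 315 CPM in knockout libraries, and HNRNPA2B1 at 1182 to 1311 and 503 to 529 CPM.

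The hnRNPs were the group with the most fallers: HNRNPA2B1, HNRNPA3, HNRNPLL, HNRNPH1, HNRNPL, HNRNPH3, HNRNPA1, HNRNPA1L2, HNRNPK, HNRNPR and HNRNPM fell, and HNRNPF, HNRNPAB and HNRNPA0 rose. HNRNPA2B1 (chr7:26171151-26201529), one of the core A/B proteins of the hnRNP particle, had 1182, 1311 and 1240.1 CPM in control libraries 1 to 3 and 503, 529 and 515 CPM in knockout libraries 1 to 3. The groups were far apart, and the libraries of each group lay close together. The mean went from 1244 ± 64.5 to 516 ± 13.1 CPM (SD, n = 3), a log2 fold change of -1.27 (SE 0.08, adjusted p = 1.08e-05), 2.41-fold lower. HNRNPA3 (chr2:177212694-177223959), its close relative, had 355, 390.4 and 393 CPM in control libraries 1 to 3 and 157, 163 and 153 CPM in knockout libraries 1 to 3 and changed by -1.27 (SE 0.09, adjusted p = 1.35e-05). HNRNPH1 (chr5:179614178-179634784), which binds runs of G, had 333, 350.1 and 376 CPM against 158, 173 and 175 CPM and changed by -1.06 (SE 0.09, adjusted p = 3.37e-05). HNRNPA1, a silencer-binding repressor of exons, had 411, 452 and 434 CPM against 221, 259.6 and 231 CPM and changed by -0.87 (SE 0.10, adjusted p = 9.08e-05). In each of these 4 genes the groups were far apart.

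HNRNPK, which binds runs of C, had 1030.5, 1063 and 1007 CPM against 625, 583 and 643 CPM and changed by -0.74 (SE 0.08, adjusted p = 9.38e-05). HNRNPL, which binds CA-rich RNA, had 43.7, 43.4 and 39.7 CPM against 23.3, 18.0 and 21.8 CPM and changed by -1.01 (SE 0.12, adjusted p = 1.62e-04). Its paralogue HNRNPLL, known for its part in CD45 splicing in lymphocytes, was far less abundant, at 15.9, 16.8 and 16.5 CPM against 6.91, 7.30 and 6.21 CPM, and changed by -1.27 (SE 0.13, adjusted p = 6.41e-05). HNRNPH3 (172, 189 and 188 CPM against 88.5, 103 and 96.6 CPM) had a log2 fold change of -0.93 and HNRNPA1L2 (15.4, 13.5 and 14.1 CPM against 7.70, 8.88 and 8.56 CPM) one of -0.77. HNRNPR changed by -0.65 (adjusted p = 0.0182), a call lost when control library 2 or 3 or knockout library 1 or 3 was left out (adjusted p up to 0.0870) and with the length and GC offset. HNRNPM changed by -0.52 (adjusted p = 0.00232). Reads assigned to HNRNPA1 pseudogenes followed the gene: 74 such names, 28 of them with reads, held 6041, 6441 and 6976 reads in control and 3238, 3643 and 3931 in knockout libraries. Those sums were 60.4% of the gene's own level in control and 59.9% in knockout cells, so the level of HNRNPA1 depends on how shared reads were assigned. Reads counted for the copies may come from the gene itself, which was not tested. Their like direction is therefore no separate evidence for that of the gene. The 3 most abundant copies, HNRNPA1P7, HNRNPA1P48 and HNRNPA1P10, changed by -0.95, -0.85 and -0.80 on the log2 scale.

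HNRNPF (chr10:43385617-43409186), the G-run binding partner of HNRNPH1, went the other way, with 337, 326 and 325 CPM in control libraries 1 to 3 and 505, 532 and 503 CPM in knockout libraries 1 to 3. The knockout libraries all lay above the controls, and the change was 0.64 (SE 0.08, adjusted p = 1.80e-04). HNRNPAB, an A/B-type protein that also binds DNA, had 426, 409.5 and 399 CPM against 550.0, 553 and 538 CPM and changed by 0.41 (SE 0.08, adjusted p = 0.00189). HNRNPA0, which binds AU-rich elements, changed by 0.24 (adjusted p = 0.0403), a call lost in 7 of 16 alternative analyses. Not passing were HNRNPC (0.11), which binds runs of U, HNRNPU (-0.10), a nuclear matrix protein, and its relatives HNRNPUL1 (-0.06) and HNRNPUL2 (-0.13).

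Among Sm and snRNP proteins, SNRPC, SNRPB, SNRPD2 and SNRPD1 rose. SNRPC, the U1 protein that steadies pairing with the 5′ splice site, had 152, 139 and 138 CPM in control libraries 1 to 3 and 199.8, 261 and 229 CPM in knockout libraries 1 to 3 and changed by 0.68 (SE 0.11, adjusted p = 7.82e-04). SNRPB, which encodes the Sm ring proteins B and B′, had 439, 408 and 394 CPM against 616, 679.5 and 639.9 CPM and changed by 0.64 (SE 0.09, adjusted p = 2.76e-04). SNRPD2, another ring protein, had 264, 229.7 and 227 CPM against 317, 401 and 354 CPM and changed by 0.57 (SE 0.11, adjusted p = 0.00199). The groups did not overlap in any of the 3. SNRPD1 had 95.3, 98.6 and 97.7 CPM against 124, 166 and 112 CPM, changed by 0.46 (SE 0.14, adjusted p = 0.0188), and lost its call when control library 1 or control library 3 was left out or when only library totals were used for scaling. The other ring genes did not pass: SNRPG was at 0.19, SNRPE at 0.09, SNRPF at 0.06 and SNRPD3 at -0.15. Nor did SNRPA of the U1 particle (-0.13) or SNRPA1 (-0.31) and SNRPB2 (0.28) of the U2 particle. By edgeR's test, DESeq2 and limma-voom 0 genes of the group fell, and at an unadjusted p under 0.05 the count was 0. This count depended on the setting: 3 fell with library totals only, 2 with the length and GC offset, and 2 without knockout library 2.

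In the group that reads the 3′ splice site and the branch site, U2AF1, SF3B4, SF3B5, SF3A2, SF3B2 and SF3A3 rose and SF3B1 and SF3B3 fell. SF3B1 (chr2:197388515-197435079), the protein that clasps the branch site and is recurrently mutated in blood cancers, had 203, 248 and 264 CPM in control libraries 1 to 3 and 93.2, 83.3 and 90.4 CPM in knockout libraries 1 to 3. All knockout libraries lay far below all control libraries. The mean went from 238 ± 31.8 to 89.0 ± 5.10 CPM (SD, n = 3), a change of -1.42 (SE 0.12, adjusted p = 2.69e-05), or 2.68-fold lower. SF3B3, a beta-propeller scaffold of the same complex, had 321, 312 and 294 CPM against 219.5, 139 and 217 CPM and changed by -0.69 (SE 0.16, adjusted p = 0.00537), with knockout library 2 the lowest. Other subunits rose. SF3B4, which contacts RNA before the branch site, had 110.0, 107 and 99.7 CPM against 178, 167 and 202 CPM and changed by 0.79 (SE 0.10, adjusted p = 2.16e-04). SF3B5 had 108, 102 and 96.7 CPM against 156, 203 and 169 CPM and changed by 0.78 (SE 0.12, adjusted p = 4.11e-04), and SF3B2, which binds SF3B4, had 348, 332 and 323 CPM against 529, 461 and 572 CPM and changed by 0.64 (SE 0.10, adjusted p = 6.10e-04). SF3A2, a zinc finger protein of the SF3A trimer, had 61.4, 52.6 and 57.1 CPM against 99.5, 75.7 and 109 CPM and changed by 0.73 (SE 0.14, adjusted p = 0.00183). SF3A3 changed by 0.38 (adjusted p = 0.00450), a call lost with library totals only.

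U2AF1, the subunit that reads the AG at the end of the intron, had 1.45, 1.48 and 1.16 CPM in control libraries 1 to 3 and 3.37, 3.51 and 7.06 CPM in knockout libraries 1 to 3, which is 33, 37 and 31 against 81, 87 and 192 reads. Its change of 1.78 (SE 0.32, adjusted p = 0.00124) was the highest of the 79, but the level is very low for a core factor. GRCh38 carries a copy of the gene, U2AF1L5, to which 86, 109 and 98 control and 121, 189 and 144 knockout reads were assigned. Both together held 5.30 ± 0.52 CPM in control and 10.6 ± 2.02 CPM in knockout cells (SD, n = 3). These sums remain low, and reads that fit both copies may have been left out of counting, which was not tested. U2AF2, the partner that binds the polypyrimidine tract, was at 0.03 and did not pass. SF3A1 (0.36, adjusted p = 0.0614) and SF3B6 (0.40, adjusted p = 0.0762) did not pass either. Without knockout library 2 SF3A1 passed at 0.52 (adjusted p = 7.37e-05).

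The PRPF genes were also split. PRPF19, the ubiquitin ligase that names the Prp19 complex, had 188, 181 and 172 CPM in control libraries 1 to 3 and 279, 253 and 298 CPM in knockout libraries 1 to 3, and rose by 0.62 (SE 0.10, adjusted p = 5.28e-04) on the log2 scale. PRPF6 (124, 120.3 and 112 CPM against 179, 161 and 197 CPM), a bridge within the tri-snRNP, changed by 0.59 (SE 0.10, adjusted p = 0.00104). PRPF38A (68.7, 71.9 and 69.6 CPM against 91.0, 107 and 90.9 CPM), needed for spliceosome activation, changed by 0.46 (SE 0.10, adjusted p = 0.00355), and PRPF4 (129, 129 and 122 CPM against 162, 154 and 178 CPM), of the U4/U6 particle, by 0.38 (SE 0.09, adjusted p = 0.00623), but PRPF4 did not pass when scaled by library totals alone (adjusted p = 0.0681). The groups were separate in these risers. PRPF4B, a kinase of tri-snRNP proteins, had 43.4, 56.9 and 60.97 CPM in control libraries 1 to 3 and 25.2, 24.6 and 25.4 CPM in knockout libraries 1 to 3 and changed by -1.10 (SE 0.14, adjusted p = 1.73e-04). PRPF38B had 45.7, 52.3 and 56.5 CPM against 26.4, 35.3 and 28.5 CPM and changed by -0.78 (SE 0.14, adjusted p = 0.00117). PRPF39, a U1-associated protein, had 11.7, 16.3 and 17.5 CPM against 8.75, 12.9 and 10.4 CPM; its groups overlapped, and the change of -0.51 (adjusted p = 0.0491) was lost in 9 of 16 alternative analyses. Not passing were PRPF3 (-0.02), PRPF40B (-0.27), PRPF18 (-0.36) and PRPF8 (-0.40).

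LSM1, LSM7, LSM6 and LSM4 rose. LSM1, the subunit that marks the cytoplasmic decay ring, had 22.3, 22.3 and 21.9 CPM in control libraries 1 to 3 and 29.0, 46.0 and 34.4 CPM in knockout libraries 1 to 3 and changed by 0.72 (SE 0.16, adjusted p = 0.00437). LSM4, LSM6 and LSM7 belong to both rings. LSM4 had 232, 202 and 205 CPM against 302, 357 and 325 CPM and changed by 0.62 (SE 0.10, adjusted p = 7.25e-04), LSM7 had 66.04, 63.9 and 59.9 CPM against 87.7, 119.7 and 94.3 CPM and changed by 0.67 (SE 0.13, adjusted p = 0.00172), and LSM6 had 20.3, 18.7 and 18.8 CPM against 24.6, 38.0 and 27.4 CPM and changed by 0.64 (SE 0.16, adjusted p = 0.00820). All knockout values were above all control values in these genes. LSM8, which takes the place of LSM1 in the nuclear ring, was at 0.02 and did not pass. LSM3 (0.34, adjusted p = 0.0523) and LSM5 (-0.22), of both rings, and LSM10 (0.26) and LSM11 (0.01), of the U7 particle for histone mRNA, did not pass. LSM12 (0.25), LSM14A (0.55) and LSM14B (-0.07) did not pass either. No LSM gene fell by edgeR's test, and the count at an unadjusted p under 0.05 was 0; DESeq2 gave 0 and limma-voom 0. With library totals only, 2 fell (all tested genes: 37.8%), as did 2 with the length and GC offset and 2 without knockout library 2.

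Levels were also summed over the tested members of each group. The hnRNP sum was 7159, 7401 and 7209.9 CPM in control and 5468, 5787 and 5632 CPM in knockout libraries, so that every knockout library lay below every control library. SR proteins went from 2829 ± 66.8 to 3400.4 ± 194 CPM (SD, n = 3), Sm and snRNP proteins from 1529 ± 57.2 to 2011 ± 222, U2AF, SF3A and SF3B from 1925 ± 26.9 to 2185 ± 159, PRPF from 833 ± 44.1 to 926 ± 46.2 and LSM from 725 ± 24.1 to 927 ± 122. Each group apart from the hnRNPs had every knockout library above every control library in these sums. The sums were not tested. The 79 tested genes together held 15098 ± 104 CPM in control and 15079.7 ± 559.6 CPM in knockout cells, about the same with TMM scaling. As a share of counted reads, with no TMM scaling, they held less in knockout libraries, 1.36% to 1.49% against 1.59% to 1.61% in control. By such shares hnRNPs were still lower (control 0.758% to 0.778%, knockout 0.512% to 0.553%). Sm and snRNP proteins were still higher (0.157% to 0.169% and 0.171% to 0.216%). The ranges overlapped for SR proteins (0.293% to 0.310% and 0.307% to 0.346%) and LSM (0.075% to 0.080% and 0.077% to 0.102%). They also overlapped for PRPF and for U2AF, SF3A and SF3B.

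**Figure D3:**
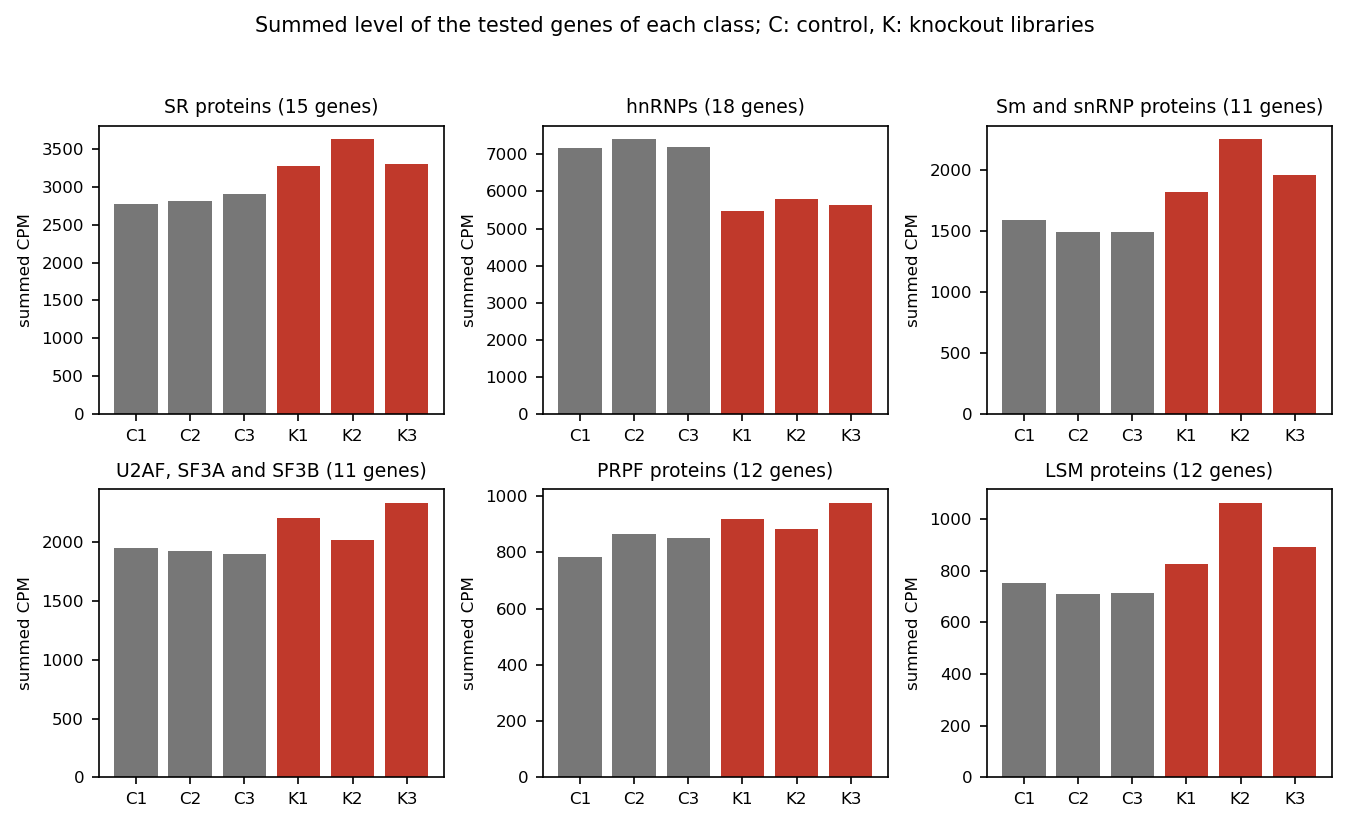
Summed level of the tested genes of each group of splicing genes (CPM), 1 bar for each control (C) and knockout (K) library. The hnRNP sum lies at 7159 to 7401 CPM in control and 5468 to 5787 CPM in knockout libraries.

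Per kilobase of transcript, the ranking of the most abundant members changed. In control cells SNRPD2 led at 467 ± 40.6 CPM per kilobase (SD, n = 3), followed by SNRPB at 382 ± 21.1, HNRNPK at 358 ± 9.73, HNRNPA2B1 at 343 ± 17.8 and HNRNPC at 339 ± 5.73. HNRNPA2B1 differed from each of its neighbours in this order by less than its SD. In knockout cells SNRPD2 (694) and SNRPB (596) led, HNRNPC was at 365 and HNRNPAB at 309, and HNRNPK and HNRNPA2B1 had 214 and 142. Ratios of reads between members with opposite roles or close kinship were computed for 11 pairs, chosen after their values were seen, and 4 are given here with no test. HNRNPA1 over SRSF1, a pair known to act against each other at splice sites, went from 0.957 ± 0.040 to 0.521 ± 0.035 (SD, n = 3). HNRNPF over HNRNPH1 went from 0.935 ± 0.074 to 3.05 ± 0.16, and SF3B1 over SF3B2 from 0.715 ± 0.12 to 0.172 ± 0.012. TRA2A over TRA2B went from 0.232 ± 0.028 to 0.113 ± 0.003.

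Long transcripts and those of low GC content tended to be lower in knockout cells, among members as among all genes. Over the 79 members, Spearman's rho of the log2 fold change was -0.39 with length and 0.36 with GC content, as descriptions over genes that share libraries. Over all tested genes these were -0.41 and 0.48. Members at or under the median length of 2774 bases had 17 risers and 7 fallers, longer ones 8 and 14. An offset that removes each library's trend with length and GC content also removes any group difference that follows them. With it, 36 members rose (all tested genes: 30.8% higher) and 25 fell (28.4% lower). Of the 46 calls, 36 passed the same way, 0 passed the opposite way and 10 were lost. Of the 8593 calls among all tested genes, 5910 passed the same way, 326 the opposite way and 2357 were lost. Another 25 members passed only with the offset. Among members the offset turned the trends round, to a rho of 0.19 with length and -0.27 with GC content, whereas over all tested genes both became 0.01. Members at or under the median GC content went from 7 risers and 15 fallers to 21 and 11, so the gained calls carry this limit.

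With the offset the hnRNPs had 11 fallers and 4 risers, with a median of -0.43, and of those that fell without it HNRNPR alone lost its call. HNRNPA2B1 was at -0.71, HNRNPH1 at -0.94, HNRNPA3 at -0.44, SF3B1 at -0.62 and SRSF11 at -0.85. HNRNPL and HNRNPM were further down than without it, at -1.43 and -0.85. HNRNPR turned to 0.42. SRSF6, SRSF7 and TRA2B were higher with the offset, at 1.72, 1.16 and 1.09. By contrast SNRPB (0.03), SNRPD2 (0.09), SF3A2 (0.09), LSM4 (0.08), LSM7 (0.11) and HNRNPAB (-0.06) lost their rises, and PRPF4B (-0.08) and PRPF38B (-0.18) their falls. Among members without a call, SRSF10 (1.18), LSM8 (1.24) and HNRNPU (0.69) rose with the offset and SRSF9 (-0.46) and U2AF2 (-0.48) fell. LSM8 and SRSF10 each entered with 1 annotated transcript, of 12384 and 7656 bases. Whether these forms are the ones expressed was not tested. In all, 30 of the 46 calls held under each of 16 alternative analyses.

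**Figure D4:**
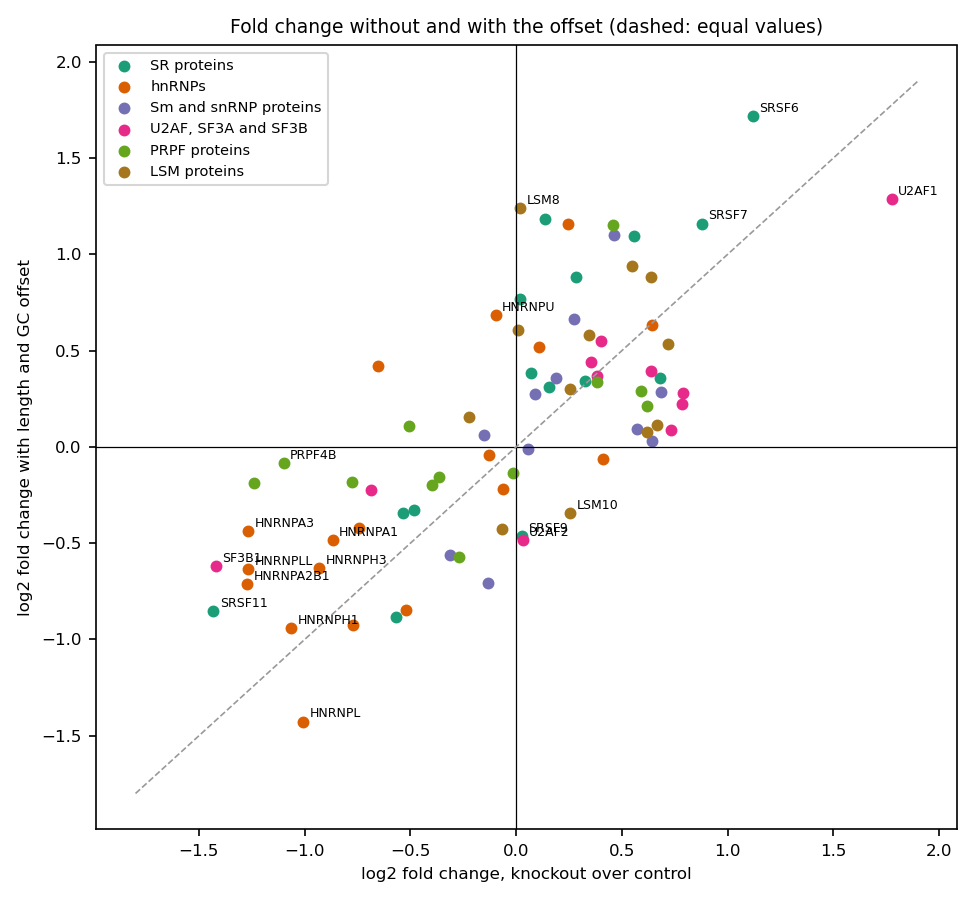
Log2 fold change of each tested member without (x) and with (y) the length and GC offset, coloured by role. SRSF6 moved from 1.12 to 1.72 and SNRPB from 0.64 to 0.03, while HNRNPA2B1 stayed below 0 at -1.27 and -0.71.

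Knockout library 2 stood apart from the other knockout libraries. It held the highest of the 3 knockout values in 52 of 79 members (65.8%), against 39.8% of all tested genes, and the lowest in 22 (27.8%, against 42.2%). It was highest in 10 of 11 Sm and snRNP genes, 10 of 12 LSM genes, 12 of 15 SR genes and 13 of 18 hnRNPs, and lowest in 7 of 11 U2AF, SF3A and SF3B genes. Its ratio to the other knockout libraries ran with GC content among members at a Spearman rho of -0.52, and with length at -0.20. The median coefficient of variation of members was 4.64% among control and 12.8% among knockout libraries, against 8.16% and 14.2% over all tested genes. Without that library 29 members rose (all tested genes: 31.7%) and 26 fell (33.3%). With the replicate number as a block 24 rose (27.1%) and 21 fell (30.7%). With library totals in place of TMM factors 21 rose (21.9%) and 30 fell (37.8%), as the median of all tested genes moved to -0.18.

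**Figure D5:**
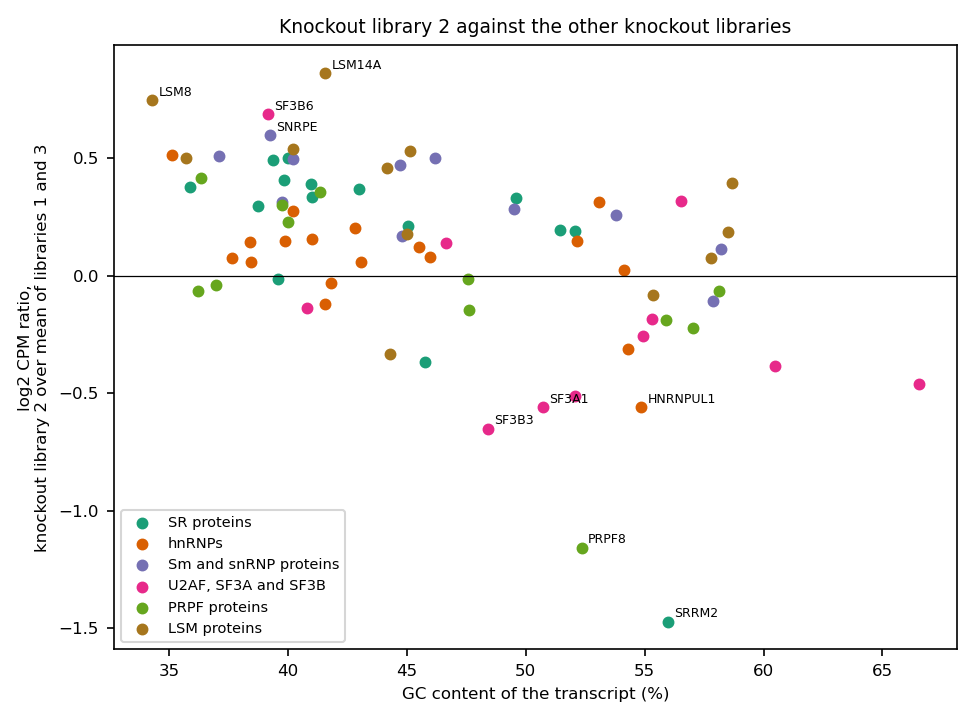
Level of each tested member in knockout library 2 over the mean of the other knockout libraries (log2) against the GC content of its transcript (percent), coloured by role. Members of low GC content lie mostly above 0, and Spearman's rho over the 79 points is -0.52.

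The other genes of the splicing pathway were taken from lists of 141 genes, of which 134 were tested: 48 rose (all tested genes: 28.9%), 45 fell (30.8%) and 41 did not pass, with a median log2 fold change of -0.00. The offset gave 48 risers and 32 fallers. Partners of the U1 particle had 1 riser and 3 fallers of 6 (1 and 3, not all the same genes, with the offset). Among them were LUC7L (0.67), its paralogue LUC7L3 (-0.83) and RBM25 (-1.19). LUC7L and LUC7L3 went opposite ways only without the offset. With it they were at 0.18 and 0.17, and both lost their calls, while RBM25 was at -0.27. Of 14 U2 and branch-site partners 7 rose and 3 fell (6 and 2 with the offset). PHF5A, which sits in the SF3B complex beside SF3B1, was at 1.03, and the helicase DDX46 at -2.07. DDX39B had 0 reads in all libraries. The search for further copies in the genome covered members only, so absence of DDX39B RNA cannot be read from this count. U5 and tri-snRNP partners had 6 risers and 1 faller of 13 (5 and 2 with the offset), including TXNL4A (0.95) and CD2BP2 (0.71). Prp19-complex and catalytic-step factors had 8 risers and 8 fallers of 22, but 11 and 2 with the offset, and included XAB2 (0.87), BUD31 (0.85) and SNW1 (-0.64).

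Factors of the minor spliceosome had 4 risers and 1 faller of 8, but 1 and 1 with the offset, and snRNP assembly factors had 5 and 1 of 14 (5 and 3 with the offset), such as WDR77 (0.68), which with its methyltransferase partner modifies Sm proteins. All 9 genes of the exon junction complex and its ASAP partners passed (all tested genes: 59.7%), 7 higher and 2 lower with and without the offset, including RNPS1 (0.65), EIF4A3 (0.76) and PNN (-1.23). Kinases and import factors of SR proteins had 1 riser and 4 fallers of 9 (1 and 2 with the offset). SRPK1 and SRPK2, which phosphorylate SR tails, were at -0.85 and -1.02. Other splicing regulators had 5 risers and 13 fallers of 24, but 8 and 9 with the offset, where the median went from -0.40 to -0.08. They included MBNL1 at -1.77, TIA1 at -1.45 and EWSR1 at 0.71. Partners of the LSM rings in decay and histone mRNA processing had 4 risers and 9 fallers of 15, with a median of -0.48 that was 0.03 with the offset, and included CPSF2 (-1.42) and DDX6 (-1.32).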

How the data were processed

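RNA-seq was made from 3 control and 3 PHF8 knockout libraries of 786-O cells. HISAT2 mapped the filtered reads to GRCh38 and HTSeq produced the gene counts, per the labels' series design text. HISAT2 was version 2.0.4, per the submitters' processing notes. How strand was treated, which annotation was counted and which HTSeq version ran are each not given in the sources used. Deposited by the authors are unnormalized whole-number read counts for each gene symbol.

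Knockout was tested against control with the quasi-likelihood test of edgeR 4.0.16 in R 4.3.3 (limma was version 3.58.1), in a model that held the group alone. It used TMM factors (0.94 to 1.07), filterByExpr (14398 genes kept), a prior count of 0.125 and Benjamini-Hochberg adjustment over all tested genes. The genes and lists were chosen with earlier results of these data known. Every member could be named; values in each library were given for up to 4 called members per role and direction with the smallest p, and for the 10 largest rises and falls. One PRPF gene and 1 marker gene count in the totals but are not reported here. From each further list up to 3 called genes with the smallest p could be named. Transcript lengths, GC content and coordinates came from GENCODE release 44 on GRCh38, matched by symbol (92.5% of tested genes), and promoters from RefSeq (GRCh38.p14). Length and GC content were those of 1 transcript per gene, the Ensembl canonical one. The offset and the levels per kilobase rest on this choice, and which forms are expressed was not tested. Alternatives were DESeq2 1.42.0, limma-voom, other scaling factors, other filters, an offset for length and GC content (lowess span 0.3, fitted around the mean of all libraries), a replicate block and leaving out each library. Same-numbered libraries of the groups did not deviate together (r = 0.02, -0.04 and 0.01). Libraries of a group differed by more than sampling noise. On simulated counts for these genes with 200 changed genes, a true change of 1.5-fold was called in 16.4% of 67 genes, one of 2-fold in 68.7% of 67 and one of 4-fold in 92.4% of 66. Unchanged genes made up 3 of the 121 calls. Far fewer genes changed in the simulation than the 8593 called in the data, which makes its adjusted p stricter. These rates therefore do not carry over to the test of the data.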

Additional observations from a re-analysis of the deposited data

How the results depend on the processing

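Across the alternatives 21 to 36 members were called higher and 18 to 30 lower, both within 1.5 times the counts of 25 and 21. With library totals only, the median log2 fold change of the members was -0.10, as all genes shifted by a like amount (median -0.18), with 21 higher and 30 lower. Leaving out 1 library gave 23 to 30 higher and 18 to 26 lower, with medians from 0.01 to 0.15. The replicate block gave 24 higher, 21 lower and a median of 0.04. The labels do not say whether the replicate numbers pair the libraries. Among members called without or with the length and GC offset, directions turned with it, alone and with the replicate block, for HNRNPAB (-0.062 and -0.062), HNRNPR (0.42 and 0.40), HNRNPU (0.69 and 0.69), LSM10 (-0.34 and -0.34), PRPF39 (0.11 and 0.11), SRSF9 (-0.46 and -0.46) and U2AF2 (-0.48 and -0.49). LSM5 (0.16), SNRPD3 (0.06) and SNRPF (-0.01), called in neither, also changed sign with the offset. When 1 library was left out, LSM8 ran from -0.28 (without knockout replicate 2) to 0.16 (without knockout replicate 1). With the offset LSM8 was at 1.24. Beyond the construction of the offset, which removes what follows length or GC content, the cause was not tested. Calls of genes below about 2 CPM, such as U2AF1, rest on few reads.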
